A study of Mus musculus with 7 samples.

Results

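V2a and V3 interneurons of the embryonic mouse spinal cord were compared at E12.5 by small RNA sequencing, with 1 library for each population. The comparison took every microRNA (miRNA) that reached 10 transcripts per 1000000 (TPM) in at least 1 of the 2 libraries, which kept 486 of the 1908 mature miRNAs in the table. The V2a library came from tdTomato-positive cells of Chx10::cre;Rosa26::LSL::tdTomato embryos and the V3 library from tdTomato-positive cells of Sim1::cre;Rosa26::LSL::tdTomato embryos. Both genotypes thus carried the same Cre-dependent reporter, and tdTomato marks every cell in which the driver was active at some time, whether or not the driver gene was still on at the sort. GFP-positive motoneurons of Hb9::gfp embryos of the same stage gave 1 more library, which is shown here only as a reference level. Spinal cords were microdissected, cells were freed with papain and sorted by fluorescence, and the series as a whole holds 7 libraries. The labels do not say how many embryos were pooled for a library or which levels of the cord were taken. Chx10 and Sim1 are protein-coding transcripts that a small RNA library does not measure, so the identity of the sorted cells could not be checked against them. A level in a sorted population is a mean over its cells, so fewer cells with a miRNA and less of it per cell cannot be told apart. The motoneuron miRNA miR-218-5p stood at 7558 TPM in V2a and 7282 TPM in V3, against 104198 TPM in the motoneuron library.

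V2a interneurons are excitatory neurons that project on the same side of the cord and take part in left-right coordination and in reaching. V3 interneurons arise from the most ventral neuronal progenitor domain, are also excitatory, and mostly send their axons across the midline. A miRNA is cut from a hairpin precursor that has a 5p and a 3p arm. One arm usually accumulates as the guide strand, which is loaded into Argonaute and represses mRNAs that match its seed, the bases 2 to 8 of the mature strand. The other arm, the passenger strand, is mostly degraded. Several miRNAs can be cut from a single primary transcript, and such clustered miRNAs often share their expression.

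The mature strands that carry the largest differences are shown with the seed in capitals, as RefSeq gives them for GRCm38.p6. Of the 486 miRNAs, 427 matched a mature strand there by name. The first set holds strands that were higher in V2a and 2 miR-344 relatives that were not, since members of 1 family went different ways.
miR-344e-3p: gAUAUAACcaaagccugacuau
miR-344d-3p: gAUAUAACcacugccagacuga
miR-344-3p: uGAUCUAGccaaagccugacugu
miR-344f-3p: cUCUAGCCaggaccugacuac
miR-216b-5p: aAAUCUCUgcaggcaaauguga
miR-216a-5p: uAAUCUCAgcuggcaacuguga
miR-217-5p: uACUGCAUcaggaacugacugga
miR-449a-5p: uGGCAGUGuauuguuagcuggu

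The second set holds strands that were higher in V3, each or a strand of their family or hairpin that differed less or the other way, since strands with the same seed did not always differ alike.
miR-128-1-5p: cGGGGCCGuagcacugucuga
miR-128-2-5p: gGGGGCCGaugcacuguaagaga
miR-128-3p: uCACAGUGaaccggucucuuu
let-7b-5p: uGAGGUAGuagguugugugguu
let-7c-5p: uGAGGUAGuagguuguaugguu
let-7a-5p: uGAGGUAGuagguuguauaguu
miR-196b-5p: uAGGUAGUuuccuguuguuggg
miR-196a-5p: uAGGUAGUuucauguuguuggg
miR-9-5p: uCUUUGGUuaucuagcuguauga
miR-92b-3p: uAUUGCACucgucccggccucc

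Most miRNAs of these 2 interneuron types lay at similar levels, and a small number differed many-fold. Each library was scaled to a sum of 1000000, and the difference is log2(V2a TPM + 1) minus log2(V3 TPM + 1), so that positive values are higher in V2a. Of the 486 miRNAs, 326 lay within 2-fold. In V2a, 127 were at least 2-fold higher (26.1%) and 32 at least 4-fold higher (6.58%). In V3, 33 were at least 2-fold higher (6.79%) and 7 at least 4-fold higher (1.44%). With 1 library on each side these counts describe 2 libraries and no test was made.

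How this split falls depends on the scaling. The miR-9-5p strand alone took 16.03% of the V3 library and 7.39% of the V2a library, and the median difference over all 486 miRNAs was 0.49, not 0. With the median of ratios as the scaling, the same median was 0.02, and 63 miRNAs were at least 2-fold higher in V2a (13.0%) and 60 in V3 (12.3%). TMM factors gave 67 (13.8%) and 59 (12.1%). At 4-fold the counts were then 23 in V2a (4.73%) and 16 in V3 (3.29%). A difference smaller than about 0.5 in favour of V2a therefore reads as no difference, or as a small one towards V3, under the other scaling. Differences are given below on the sum scaling, and the value by the median of ratios is added where it changes the reading.

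**Figure D1:**
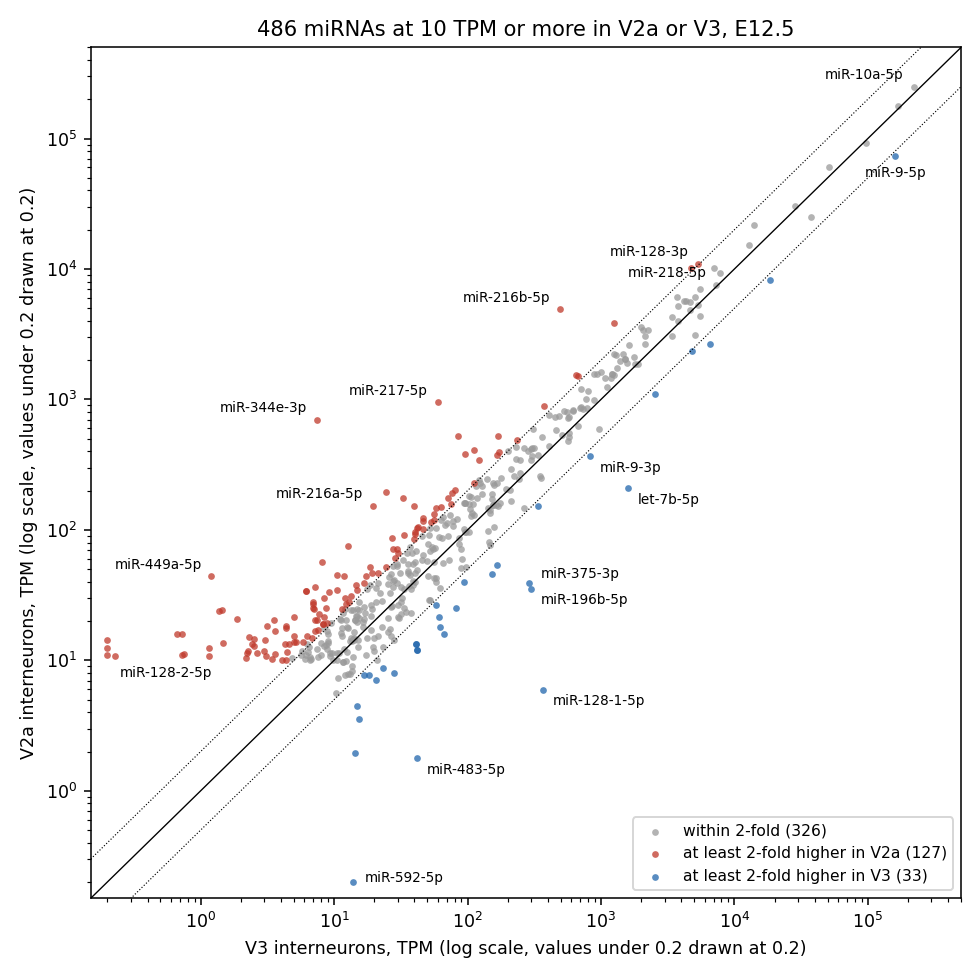
Level of each of the 486 miRNAs in V3 (x axis) and V2a (y axis), in TPM on log axes, with 1 library each. The solid line marks equal levels and the dotted lines 2-fold; red points (127) lie at least 2-fold higher in V2a and blue points (33) at least 2-fold higher in V3, by the difference with 1 TPM added. The far red points include miR-344e-3p, miR-217-5p and miR-216b-5p, and the far blue points miR-128-1-5p, miR-483-5p and miR-592-5p.

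The only replicate libraries of the series are the E10.5 ones, which lie in another table, at an earlier stage and at lower depth, so they serve as a yardstick and not as an error for E12.5; nothing in the labels says whether they are separate sorts. Both E10.5 groups come from Hb9::gfp embryos, sorted as GFP-positive motoneurons or GFP-negative cells. Between the 2 motoneuron replicates of E10.5, 74 of 537 miRNAs at 10 reads per 1000000 (RPM) or more were at least 2-fold apart (13.8%) and 19 at least 4-fold (3.54%). Between the 2 replicates of GFP-negative cells the counts were 70 of 566 (12.4%) and 10 (1.77%). V2a and V3 had 160 of 486 at least 2-fold apart (32.9%, or 25.3% by the median of ratios) and 39 at least 4-fold apart (8.02%). Part of the 2-fold differences is thus of a size that replicate libraries of this study also show.

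Among miRNAs at 100 TPM (or RPM) or more all these shares were lower, and those of the replicates fell further in proportion. Here 49 of 197 lay at least 2-fold apart between V2a and V3 (24.9%, or 16.8% by the median of ratios) and 11 at least 4-fold (5.58%, or 6.09%). The 49 were 36 higher in V2a (18.3%) and 13 higher in V3 (6.60%), and the 11 were 7 (3.55%) and 4 (2.03%). The E10.5 replicates had 13 of 258 (5.04%) and 9 of 281 (3.20%) at least 2-fold apart. At 4-fold they had 3 (1.16%) and 1 (0.356%). The median absolute difference was 0.57 between V2a and V3 (0.38 by the median of ratios), against 0.22 and 0.25 between replicates.

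**Figure D2:**
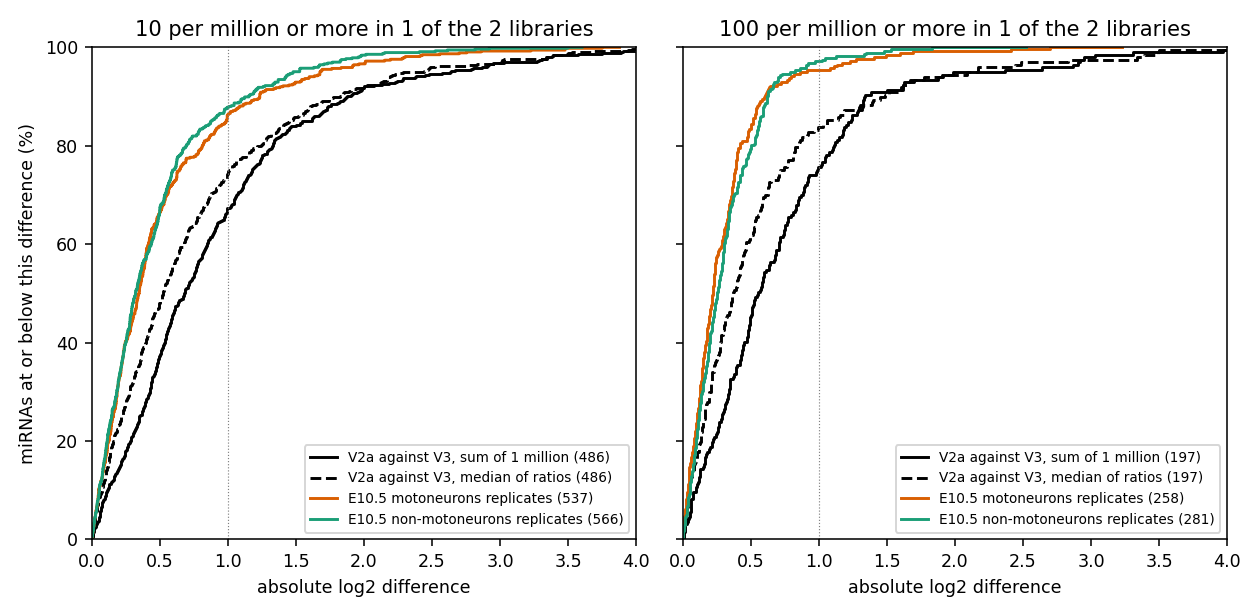
Cumulative share of miRNAs (y axis, percent) by absolute log2 difference (x axis) between V2a and V3 under both scalings and between the E10.5 replicates, for miRNAs at 10 (left) and 100 (right) TPM or RPM or more in at least 1 of the 2 libraries compared; the numbers of miRNAs stand in the legend and the dotted line marks 2-fold. Both V2a against V3 curves run to the right of both replicate curves over most of the range.

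Depth was about 4605424 reads for V2a, 4270037 for V3 and 3603557 for motoneurons, taken from the size of 1 read at a strand length of 22 nt. Intervals below are exact binomial 95% intervals of the ratio from these reads, and they hold only the error of counting. Copies of 1 molecule made by PCR could not be told apart and were counted as separate reads, so the intervals can be too narrow. Where a strand had no read, the limit is 3 reads, or 0.667 TPM in V2a and 0.721 TPM in V3. The counting interval of the ratio held 1 for 89 of the 486 miRNAs. It held 1 for 0 of the 160 that were at least 2-fold apart. At these depths the level limit and the fold already fix that 0, so it adds nothing to them. It lay wholly past 2-fold for 79 miRNAs higher in V2a and 25 higher in V3. Of the 486, 92 share reads with near-identical rows, among them all let-7 guides, and their values are less certain.

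The group higher in V2a by the largest list median (3.10) was miR-216 and miR-217, which is best known from the pancreas. All 4 of its miRNAs at 10 TPM or more were at least 4-fold higher in V2a under both scalings, against 6.58% of all 486 miRNAs (4.73% by the median of ratios), and all annotated strands together summed to 6543 TPM in V2a, 659 in V3 and 1081 in motoneurons. The list was chosen with earlier results of these data known, and miR-216a-5p and miR-216a-3p are arms of 1 hairpin. Its rank and share are thus a description only. The most abundant was miR-216b-5p, at 4903 TPM in V2a, 495 in V3 and 722 in motoneurons, a ratio of 9.90 (95% counting interval 9.47 to 10.4). It shares reads with 1 other row. The V2a library stood above the other E12.5 libraries, and the V3 library was the lowest.

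For miR-217-5p the levels were 951 TPM in V2a, 59.8 in V3 and 207 in motoneurons, a ratio of 15.9 (interval 14.03 to 18.1). Both arms of Mir216a followed, miR-216a-3p at 529, 84.2 and 126 TPM and miR-216a-5p at 152, 19.5 and 18.0 TPM in V2a, V3 and motoneurons. The differences of the 2 arms were 2.64 and 2.90 on the log2 scale. Mir216a and Mir217 lie on the plus strand at chr11:28757012-28763835 (GRCm38.p6), in an intron of the long non-coding RNA gene Gm12082. Mir216b lies upstream at chr11:28746191-28746276, outside any gene of the GENCODE annotation on its strand. The other 4 annotated strands of the group were below 7 TPM in all 3 libraries.

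The miR-344 family, a rodent group of hairpins on chromosome 7, did not move as 1 block. The largest difference on the sum scaling was that of miR-344e-3p (log2 6.37, or 5.93 by the median of ratios, where miR-128-1-5p differed more, by -6.16). It was at 699 TPM in V2a, 7.45 in V3 and 36.3 in motoneurons, a ratio of 93.8 (interval 66.0 to 138) from 3144 and 31 reads. Its relatives miR-344d-3p (521 TPM in V2a, 169 in V3, 129 in motoneurons) and miR-344h-3p (36.3, 7.21 and 7.04 TPM) were also higher in V2a. In contrast, miR-344-3p, the most abundant of the family, was at 1572 TPM in V2a and 1200 in V3, and miR-344c-3p was at 25.7 and 26.9 TPM. The sixth, miR-344f-3p, was higher in V3, at 62.2 TPM against 18.0 in V2a.

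The 3 strands that were higher in V2a can all come from 1 locus. However, miR-344d-3p can also come from Mir344d-1 and Mir344d-2 at chr7:61683124-61685351, and the mature strand does not tell its copies apart. Mir344e and Mir344h-1 lie within the cluster at chr7:61726249-61742425 (minus strand), an intron of the non-coding gene A230057D06Rik, together with a copy of Mir344d, and all 3 miRNAs of that cluster were at least 2-fold higher in V2a. Copies of the miR-344-3p hairpin lie at chr7:61877770-61877864, in the same host gene, and at chr7:61940027-61940106, and Mir344f lies at chr7:62046181-62046248. miR-344d-3p and miR-344e-3p have the same base at 17 of 22 positions and share the seed, which miR-344-3p and miR-344f-3p do not have. The seed of miR-344e-3p and miR-344d-3p is also that of miR-410-3p, which was at 147 TPM in V2a and 143 in V3. Summed over these 3 strands, the seed stood at 1367 TPM in V2a, 319 in V3 and 441 in motoneurons.

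The miR-34 and miR-449 family was at least 2-fold higher in V2a in all 4 of its miRNAs at 10 TPM or more (26.1% of all 486 were), or in 3 by the median of ratios (13.0%). Of the 4, only miR-34c-5p also reached 10 TPM in V3. The others passed the limit through V2a alone, which itself favours V2a, so the 4 cannot be weighed against the share of all 486. miR-34 is a target of p53, and both miR-34 and miR-449 are abundant in multiciliated cells. The levels of miR-449a-5p were 44.0 TPM in V2a, 1.20 in V3 and 3.10 in motoneurons, a ratio of 36.6 (interval 15.4 to 114) that rests on 5 reads in V3. Its hairpin lies at chr13:113037534-113037624 in an intron of Cdc20b, a gene active in multiciliated cells. The passenger strand miR-449a-3p was at 1.56 and 0.48 TPM in V2a and V3, and miR-449b and both arms of Mir449c were listed at 0 in both.

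The other members come from the Mir34b and Mir34c hairpins, which lie together on the minus strand at chr9:51103034-51103645. miR-34c-5p was at 192 TPM in V2a, 76.3 in V3 and 142 in motoneurons (log2 difference 1.32, or 0.85 by the median of ratios). miR-34c-3p was at 25.1, 6.97 and 11.3 TPM, and miR-34b-3p at 10.9, 0.72 and 11.5 TPM in V2a, V3 and motoneurons. The ratio of miR-34b-3p was 15.1 (interval 4.88 to 75.8), from 49 and 3 reads. For these 3 strands the motoneuron library lay near the V2a level or between V2a and V3, so that V3 was the lowest, whereas for miR-449a-5p V2a stood alone above both other libraries.

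Of 17 pan-neuronal miRNAs at 10 TPM or more, 8 were at least 2-fold higher in V2a and 1 in V3, beside 26.1% and 6.79% of all 486. By the median of ratios the counts were 3 and 4, beside 13.0% and 12.3%. Their median difference was 0.74, against 0.49 over all 486, and the whole list summed to 18562 TPM in V2a, 12180 in V3 and 28142 in motoneurons. The most abundant, miR-128-3p, a neuronal miRNA that limits excitability, was at 11007, 5328 and 13085 TPM in V2a, V3 and motoneurons (log2 difference 1.05, or 0.57 by the median of ratios). miR-124-3p, a miRNA that represses non-neuronal transcripts, was at 147, 57.9 and 157 TPM (1.33, or 0.86). In both, V2a lay near the motoneuron level and V3 below it.

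The miR-7 guides are bound by the circular RNA Cdr1as, and all 4 miR-7 strands at 10 TPM or more were higher in V2a, while miR-7b-3p, below that limit, was listed at 0 in V2a and at 3.37 TPM in V3. miR-7a-5p was at 1550 TPM in V2a, 653 in V3 and 1183 in motoneurons, and miR-7b-5p at 153, 40.0 and 357 TPM; they share reads with each other. The passenger strand miR-7a-2-3p, whose reads are not shared, was at 46.9, 19.1 and 46.4 TPM. The log2 differences of these 3 were 1.25, 1.91 and 1.25, or 0.77, 1.45 and 0.79 by the median of ratios. miR-212-5p, from a cluster induced by neuronal activity, was at 20.6 TPM in V2a, 1.88 in V3 and 46.8 in motoneurons, while miR-132-5p of the same cluster was at 10.01 and 10.6 TPM in V2a and V3.

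Not all neuronal miRNAs leaned to V2a. miR-129-5p was at 76.9 TPM in V2a and 147 in V3 (log2 difference -0.92, or -1.39 by the median of ratios), and motoneurons had 575 TPM. miR-433-3p was nearly level on the sum scaling, at 5261 and 5320 TPM in V2a and V3. miR-137-3p was at 46.6 and 35.9 TPM, and miR-138-5p at 9.79 and 11.7 TPM. The list thus had members on both sides of 0 under either scaling.

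Among other abundant miRNAs higher in V2a, miR-6406 was at 3849 TPM in V2a, 1257 in V3 and 14377 in motoneurons. miR-6396 was at 196, 24.5 and 12.3 TPM, a ratio of 8.01 (interval 6.57 to 9.83), and its hairpin lies at chr8:122622265-122622375 in an intron of Pabpn1l. miR-708-3p was at 380, 95.3 and 329 TPM, and miR-598-3p at 344, 121 and 271 TPM. Of these 4, V2a was the highest library for all but miR-6406, whose level was highest in motoneurons.

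Of the 32 miRNAs at least 4-fold higher in V2a, 19 were under 30 TPM in V2a and 7 share reads with other rows. miR-181b-2-3p was at 12.46 TPM in V2a, listed at 0 in V3 and at 10.7 TPM in motoneurons, at least 17.3-fold higher in V2a when V3 is set to 3 reads. By the same bound miR-6997-5p (14.2 TPM in V2a, under 1 read in V3) was at least 19.7-fold higher and miR-3071-3p (10.9 TPM, listed at 0) at least 15.1-fold higher. miR-1969 was at 23.8 and 1.38 TPM in V2a and V3, miR-6974-5p at 15.9 and 0.66 TPM and miR-3062-5p at 15.8 and 0.72 TPM. Each of these rests on 6 or fewer reads in V3.

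**Figure D3:**
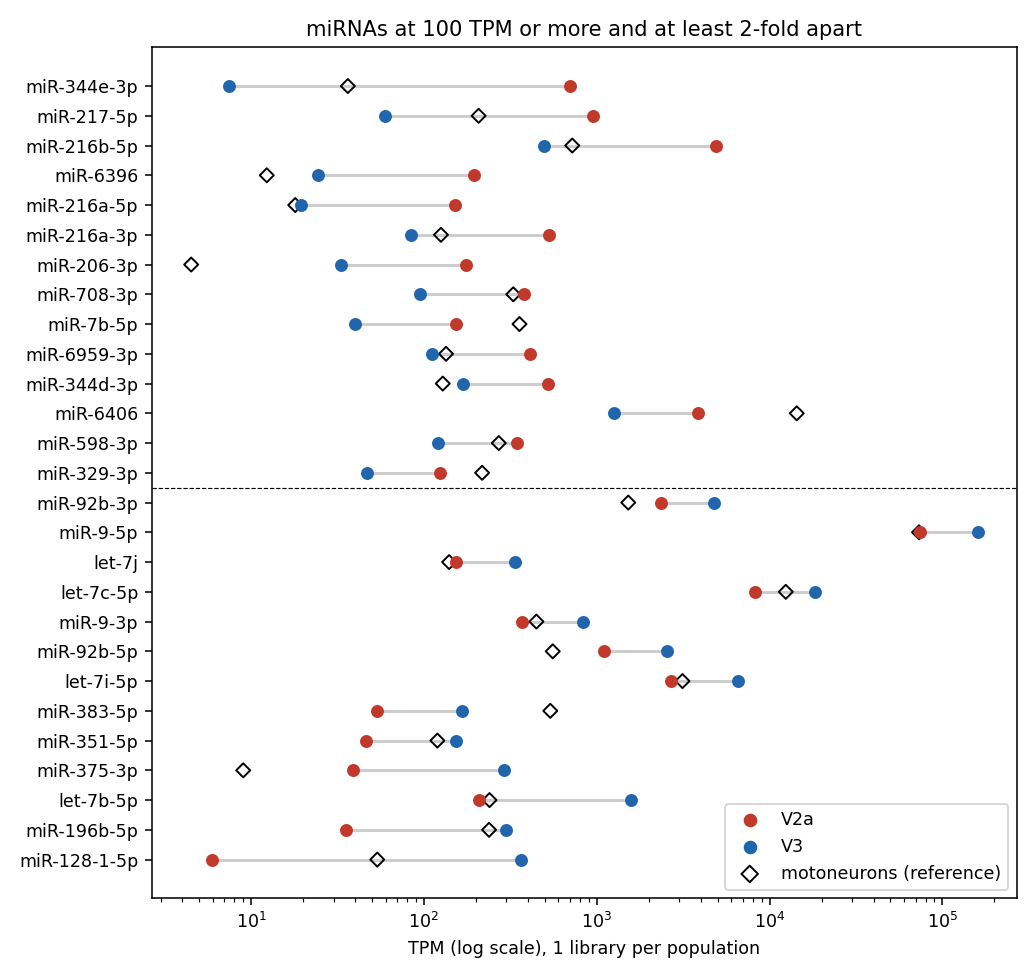
Level in TPM (x axis, log scale) of miRNAs at 100 TPM or more and at least 2-fold apart in V2a (red), V3 (blue) and the motoneuron reference (open diamonds), 1 library each; of 36 such miRNAs higher in V2a those with the largest differences are drawn above the dashed line, and all 13 higher in V3 below it. The motoneuron level lies nearer the lower interneuron library for miR-216b-5p and let-7b-5p, and outside the interneuron range for miR-206-3p, miR-6406 and miR-383-5p.

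Higher in V3 were miR-9 and miR-92b, listed here as miRNAs of neural progenitors. All 4 strands of this list were at least 2-fold higher in V3 under both scalings, against 33 of all 486 (6.79%). The 4 are both arms of miR-9 and of miR-92b, so they are not separate miRNA genes. The list summed to 77773 TPM in V2a, 168480 in V3 and 75805 in motoneurons. miR-9-5p, which restrains Notch-pathway transcripts such as Hes1 in progenitors and is also made in some neurons, was at 73931, 160334 and 73278 TPM in V2a, V3 and motoneurons. This was a ratio of 2.17 (interval 2.16 to 2.18). V2a and motoneurons lay side by side and V3 stood above both.

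The passenger strand miR-9-3p kept the same ratio, at 367 TPM in V2a, 830 in V3 and 448 in motoneurons (2.26, interval 2.13 to 2.40). The strand miR-92b-3p, whose seed is that of the miR-25/92 family, was at 2368, 4775 and 1523 TPM, and miR-92b-5p at 1107, 2541 and 557 TPM. For miR-92b the 3 libraries were in the order motoneurons, V2a and V3, from low to high. miR-9 can come from Mir9-1 (chr3:88215598-88215686), Mir9-2 (chr13:83738814-83738885, in the non-coding gene C130071C03Rik) and Mir9-3 (chr7:79505264-79505353), and mature strands do not tell these apart. Beside Mir9-1 lies Mir3093, whose miR-3093-3p was also higher in V3, at 20.7 TPM against 7.12 in V2a. Mir92b lies at chr3:89227116-89227198.

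Among the let-7 guides, which rise as neural cells mature, 3 of 9 were at least 2-fold higher in V3 under both scalings, beside 6.79% of all 486 (12.3% by the median of ratios), and none of the 9 in V2a. let-7b-5p was at 209 TPM in V2a, 1585 in V3 and 240 in motoneurons (ratio 7.58, interval 7.08 to 8.12). let-7i-5p was at 2684, 6606 and 3135 TPM and let-7c-5p at 8285, 18345 and 12421 TPM. The row listed as let-7j was at 154, 339 and 140 TPM. V3 was the highest library for these 4. The other guides were close on the sum scaling: let-7a-5p was at 4349 and 5523 TPM in V2a and V3, let-7e-5p at 4008 and 3805, and let-7g-5p at 1863 and 1809. By the median of ratios all 9 guides lay towards V3.

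All let-7 guides share the seed, and the 9 together stood at 23840 TPM in V2a, 40202 in V3 and 28590 in motoneurons. let-7b-5p and let-7c-5p have the same base at 21 of 22 positions, and all of these rows share reads, so their split among names is uncertain. Passenger strands tell the hairpins apart better. let-7c-1-3p, whose reads are not shared, was at 8.67 TPM in V2a and 23.3 in V3. let-7b-3p was at 7.88 and 12.8 TPM, a difference of -0.64 that is smaller than that of its guide (-2.92). The strand listed as let-7c-2-3p and let-7a-1-3p, which cannot be told apart, was at 11.9 and 41.7 TPM. let-7e-3p went the other way, at 17.8 TPM in V2a and 4.33 in V3. Mirlet7c-2 and Mirlet7b lie together at chr15:85706603-85707403 in an exon of the non-coding gene Lncppara. Of the 4 strands that this locus can give, 3 were at least 2-fold higher in V3. Of these, let-7c-5p can also come from Mirlet7c-1 and let-7c-2-3p is not told apart from let-7a-1-3p, so neither can be assigned to the locus.

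The Hox clusters hold miRNAs whose levels follow position along the body axis. miR-196b-5p, from a hairpin at chr6:52230081-52230165 that overlaps an exon of Hoxa9, was at 35.5 TPM in V2a, 297 in V3 and 238 in motoneurons (ratio 8.37, interval 7.08 to 9.91). Its relative miR-196a-5p, with which it shares its seed, 21 of 22 positions and some reads, was at 3113, 5086 and 8165 TPM, a difference of -0.71 between V2a and V3 (-1.18 by the median of ratios). V2a was the lowest library for both. The other 7 Hox miRNAs lay between -0.53 and 0.29, and by the median of ratios all 9 lay towards V3, 2 of them by at least 2-fold. They include the most abundant of all, miR-10a-5p at 249133 TPM in V2a and 220124 in V3. miR-10b-5p was at 176399 and 167569 TPM and miR-615-3p at 92772 and 96727 TPM.

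Several single miRNAs were higher in V3. miR-375-3p, known from endocrine cells, was at 38.9 TPM in V2a, 291 in V3 and 9.01 in motoneurons (ratio 7.47, interval 6.37 to 8.81). Its other arm miR-375-5p was at 38.9, 21.2 and 7.99 TPM, a difference of 0.85 towards V2a. The hairpin lies at chr1:74900658-74900721. miR-351-5p was at 46.3 TPM in V2a, 153 in V3 and 120 in motoneurons. miR-383-5p was at 53.8, 167 and 539 TPM. Both arms of Mir28a were higher in V3, miR-28a-5p at 40.0 and 94.8 TPM and miR-28a-3p at 25.02 and 82.2 TPM in V2a and V3.

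At lower levels, miR-483-5p, from an intron of the growth factor gene Igf2 (chr7:142654924-142654996), was at 1.78 TPM in V2a, 41.6 in V3 and 0.56 in motoneurons. Its ratio was 23.4 (interval 11.6 to 55.0), while miR-483-3p was at 10.99 and 8.01 TPM in V2a and V3. miR-592-5p, whose hairpin at chr6:27936655-27936750 overlaps an exon of the glutamate receptor gene Grm8, was listed at 0 in V2a, at 13.8 TPM in V3 and at 3.77 in motoneurons. With V2a at 3 reads this is at least 20.7-fold higher in V3. miR-1966-5p was at 1.96, 14.4 and 1.71 TPM in V2a, V3 and motoneurons. The V3 library was the highest of the 3 for each.

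The sharpest contrast between arms listed for the same hairpin was in miR-128, though its 3p arm can come from either of 2 hairpins. miR-128-1-5p was at 5.95 TPM in V2a, 366 in V3 and 53.7 in motoneurons, a ratio of 61.6 (interval 41.1 to 92.9) from about 25.5 and 1454 reads. miR-128-2-5p, the same arm of the second hairpin, was at 10.9 TPM in V2a, 0.23 in V3 and 30.1 in motoneurons, a ratio of 47.2 the other way (interval 8.10 to 1900) that rests on 1 read in V3. The guide miR-128-3p, which both hairpins can give, was 2.07-fold higher in V2a, and its level cannot be assigned to either hairpin. Mir128-1 lies at chr1:128202361-128202430 in an intron of R3hdm1, and Mir128-2 at chr9:112118636-112118711 in an intron of Arpp21. The reads of all 3 strands are listed as not shared with other rows. The 2 passenger strands share their seed, the only seed of 36 with 2 or more miRNAs here that held members at least 2-fold apart in both directions.

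In most hairpins the 2 arms lay on the same side. Both arms were among the 486 miRNAs for 88 pairs, and in 70 the signs were alike (63 by the median of ratios). On the sum scaling 367 of all 486 miRNAs were higher in V2a and 119 in V3. Many unrelated strands would thus also have like signs. Both arms were at least 2-fold higher in V2a in 7 pairs and in V3 in 6, or in 2 and 8 by the median of ratios, exactly 1 arm passed 2-fold in 28, and both stayed within 2-fold in 46. Across pairs, Pearson's r between the arms was 0.39 and Spearman's rho 0.52, given as a description, since pairs share libraries and some share a strand. Besides Mir128-1, the widest gaps were in Mir483 and in Mir181b-2, for which miR-181b-5p was at 4285 and 3410 TPM in V2a and V3. However, miR-181b-5p can also come from Mir181b-1 and shares reads with another row, so that gap cannot be assigned to 1 hairpin. A narrower gap was that of Mir410, where miR-410-5p was at 45.0 and 10.51 TPM beside the nearly level miR-410-3p.

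**Figure D4:**
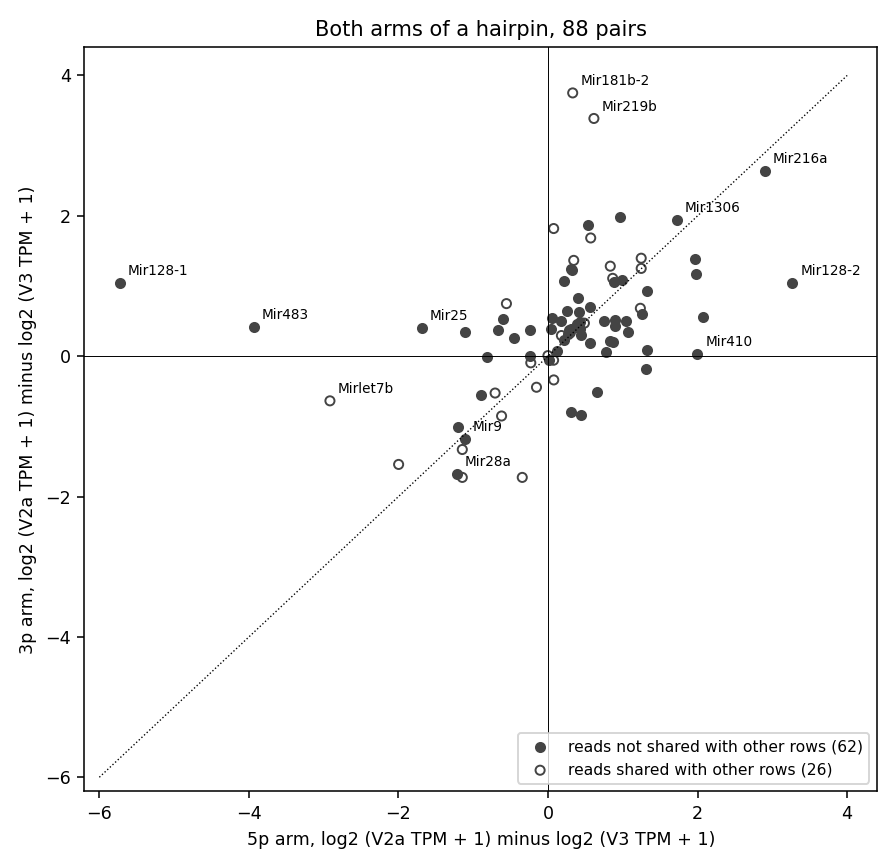
Log2 difference between V2a and V3 of the 5p arm (x axis) and the 3p arm (y axis) of hairpins with both arms among the 486 miRNAs (88 pairs); open circles share reads with other rows and the dotted line marks equal differences. Mir128-1 lies far to the left with its 3p arm above 0, Mir216a lies at the upper right near the line, and Mir9 and Mir28a lie at the lower left.

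In some genomic clusters all miRNAs passed 2-fold together, and in others none or only some did. Within 10 kb on 1 strand, 29 clusters of 2 or more hairpins gave at least 2 miRNAs at 10 TPM or more with a RefSeq match. A strand that several hairpins can give was counted in each of their clusters. In 4 of them every such miRNA was at least 2-fold higher in V2a, or in 3 by the median of ratios, namely the Mir216a and Mir217, the Mir34b and Mir34c and the Mir344e loci described above. The other was Mir188 and Mir501 in an intron of the chloride channel gene Clcn5 on chromosome X, with miR-501-3p at 106 and 42.8 TPM and miR-188-5p at 13.7 and 5.04 TPM in V2a and V3. The Mir34b and Mir34c count leaves out miR-34c-5p, which had no RefSeq match and differed by 1.32, or 0.85 by the median of ratios. In these clusters miR-34b-3p, miR-34c-3p, miR-344e-3p, miR-344h-3p and miR-188-5p reached 10 TPM in V2a only. In 1 cluster, Mir9-1 with Mir3093, every miRNA was at least 2-fold higher in V3 under both scalings, joined by the Mirlet7c-2 and Mirlet7b cluster by the median of ratios. Here miR-3093-3p and let-7b-3p reached 10 TPM in V3 only. In 11 clusters none was past 2-fold (12 by the median of ratios). The cluster of Mir106b and Mir25 in Mcm7, a replication gene, held both directions on the sum scaling: miR-106b-3p was at 150 and 63.5 TPM and miR-25-5p at 8.04 and 28.1 TPM in V2a and V3. By the median of ratios the difference of miR-106b-3p was 0.76.

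The imprinted Dlk1-Dio3 domain on chromosome 12, whose non-coding RNAs and most miRNAs come from the maternal allele, gave 63 of the 486 miRNAs. Of these, 15 were at least 2-fold higher in V2a (23.8%, near the 26.1% of all 486) and 0 in V3, or 3 and 2 by the median of ratios. Their median of 0.47 was close to the 0.49 over all miRNAs. The most abundant past 2-fold was miR-381-3p at 10217 TPM in V2a and 4749 in V3. miR-369-3p was at 887 and 374 TPM and miR-329-3p at 123 and 46.6 TPM. The whole list summed to 103666 TPM in V2a, 74317 in V3 and 137997 in motoneurons.

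Other families showed little difference beyond that median. None of 8 miR-30, 5 miR-125, 5 miR-148 or miR-152, 5 miR-135 and 4 miR-99 or miR-100 miRNAs was 2-fold apart on the sum scaling, though 1 miRNA of the miR-135 and 1 of the miR-99 list passed 2-fold towards V3 by the median of ratios. Of the 18 strands of the proliferation-linked miR-17~92 cluster and its paralogs, 2 were at least 2-fold higher in V2a and 1 in V3 (median 0.35, or -0.12 by the median of ratios). Of 7 miR-181 strands, 2 were at least 2-fold higher in V2a: miR-181b-2-3p and miR-181c-5p (13.4 TPM in V2a and 2.40 in V3). The lists of miR-15, miR-16 and miR-195 (5), of miR-26 (3), of miR-130 and miR-301 (6), and of miR-23, miR-27 and miR-24 (4) each had 1 strand at least 2-fold higher in V2a and 0 in V3, and of these 4 strands only the miR-26 one stayed past 2-fold by the median of ratios. Of 8 strands of the repeat families miR-297, miR-466, miR-467 and miR-669, 1 was at least 2-fold higher in each direction. Among imprinted miRNAs, miR-335-5p was at 26.4 TPM in V2a and 58.0 in V3, while the more abundant arm miR-335-3p was at 716 and 563 TPM. The abundant miR-99b-5p was at 60904 and 51306 TPM in V2a and V3, miR-99a-5p at 30328 and 28230, and miR-100-5p at 24982 and 37418. The 10 most abundant miRNAs of each library had 9 in common and the 50 most abundant had 48.

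**Figure D5:**
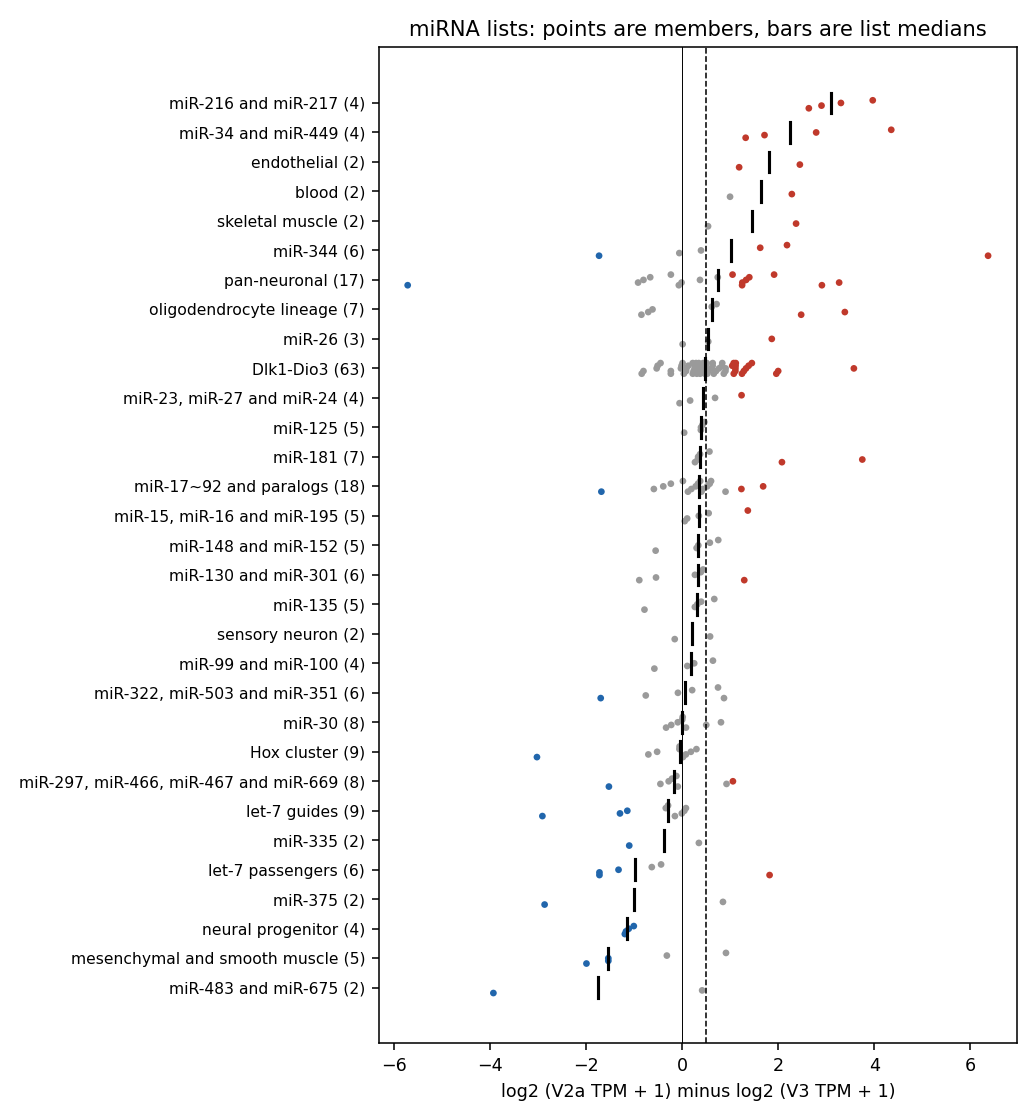
Log2 difference between V2a and V3 (x axis) of each miRNA at 10 TPM or more in the listed families and groups, with the number of miRNAs in brackets; red and blue points are at least 2-fold higher in V2a and V3, bars are list medians, the solid line is 0 and the dashed line the median of all 486 miRNAs (0.49). The miR-216 and miR-217 list and the miR-34 and miR-449 list lie wholly to the right, and the neural progenitor list wholly to the left.

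Markers of other cell types were found in both sorts. The endothelial, blood, skeletal muscle, epithelial and oligodendrocyte-lineage lists summed higher in V2a, and the mesenchymal and sensory lists higher in V3. In V2a the endothelial miR-126a-3p was at 395 TPM against 173 in V3 and 172 in motoneurons, and miR-126a-5p at 10.7, 1.15 and 5.44 TPM (the list summed to 405, 174 and 177 TPM). Of the mesenchymal and smooth muscle list, 3 of the 5 miRNAs at 10 TPM or more were at least 2-fold higher in V3 (6.79% of all 486 were), and all its strands summed to 249 TPM in V2a, 310 in V3 and 199 in motoneurons. miR-199a-5p was at 15.95 and 66.7 TPM in V2a and V3, while miR-214-3p was at 120 and 63.3 TPM and miR-143-3p at 71.5 and 89.7. The rows miR-199a-3p and miR-199b-3p, which count as 2 of the 3, have the same values and share reads, at 13.5 and 41.1 TPM. miR-145a-5p was at 1.96 and 0.30 TPM. Strands of this list thus lay on both sides.

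The blood list summed to 51.6 TPM in V2a, 15.3 in V3 and 125 in motoneurons. Its miR-486-5p was at 33.9 TPM in V2a and 6.17 in V3, while miR-451a was listed at 0 in V2a and at 0.24 TPM in V3, and miR-142-3p and miR-144-3p were listed at 0 in both. The muscle list summed to 223, 63.0 and 127 TPM in V2a, V3 and motoneurons. Among its strands, miR-206-3p was at 175 TPM in V2a, 32.9 in V3 and 4.50 in motoneurons and miR-1a-3p at 41.3, 28.1 and 118 TPM; they share reads. miR-133a-3p was at 5.12 TPM in V2a and under 1 read in V3, and miR-133b-3p, which shares its reads, was listed at 0 in V2a and at 1.92 TPM in V3. Sensory neuron miRNAs were within 2-fold, miR-183-5p at 151 and 169 TPM and the list at 181 and 194 TPM in sum. No strand of the epithelial list reached 10 TPM, and the list summed to 21.2 TPM in V2a and 7.50 in V3. The oligodendrocyte-lineage list summed to 6428 TPM in V2a and 4080 in V3. Of its 7 miRNAs, 2 were at least 2-fold higher in V2a (28.6%, near the 26.1% of all 486) and 0 in V3, or 2 and 3 by the median of ratios. The 2 were miR-338-5p (75.4 and 12.7 TPM) and miR-219b-3p (24.5 and 1.44 TPM, shared reads). The most abundant of the 7, miR-219a-2-3p, was at 6080 and 3708 TPM. On the sum scaling 4 of the 7 were higher in V2a and 3 in V3. The 3 were miR-219a-1-3p (147 and 266 TPM), miR-219a-5p (10.9 and 17.3) and miR-219c-5p (11.7 and 19.9). The other arm miR-338-3p was at 0.56 TPM in V2a and listed at 0 in V3. The part of other cell types in the differences between V2a and V3 was not tested.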

How the data were processed

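The values of the E12.5 table, for which no unit is stated, were taken to be FPKM, the unit in which the authors deposited them as far as the values show: 74.6% to 80.9% of low values in rows that share no reads lay within 0.05 of a whole number of reads. The E10.5 table as deposited by the authors holds RPM and served only for the spread between replicates and for the authors' grouping of rows that share reads. Bowtie2 is named per the submitters' processing notes; no source used here gives its version, the counter or the genome build. Each E12.5 column was rescaled to a sum of 1000000 (TPM), and differences were taken as log2 with a pseudocount of 1, which understates the change of low miRNAs. With 1 library per population there was no test. Alternatives were the median of ratios, TMM factors, leaving the 5 most abundant miRNAs out of the total, other pseudocounts and level filters, shared rows summed, and 1 arm per hairpin.

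The miRNAs and the 35 lists were chosen with earlier results of these data known. Named miRNAs were the 15 largest differences each way, those at 100 TPM and 2-fold (at most 30 each way), the 15 most abundant and the 2 most abundant of each list; others serve their locus, arm or list and were chosen after their values were seen. At the 10 TPM limit, 22 miRNAs lay at 10 to 11 TPM and 22 rows at 9 to 10. Host genes are from GENCODE M21 (GRCm38). Scripts used Python 3.11.15, pandas 2.3.3, numpy 2.4.6 and scipy 1.17.1, and were tested on simulated data. The labels allow no check of the sorted cells beyond miRNAs, and 3 columns of group means and their ratio were not used.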

Additional observations from a re-analysis of the deposited data

How the results depend on the processing

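With 1 library per population no replicate could be left out. No paired analysis was possible because each population has 1 library and no test was made. The counts at least 2-fold higher in V2a and in V3 (127 and 33) became 63 and 60 by the median of ratios and 67 and 59 with TMM factors, which centre the differences near 0; at 4-fold (32 and 7) the V3 count became 16 under both. A pseudocount of 10 lowered the V2a counts to 68 at 2-fold and 8 at 4-fold. Changing the level limit changes the number of miRNAs: at 5 TPM (672 miRNAs) the 2-fold counts were 202 and 59 and the 4-fold counts 71 and 17, at 100 TPM they were 36 and 13 and 7 and 4, and with no limit (1555 miRNAs) 410 and 144 and 110 and 28. Totals without the 5 most abundant miRNAs, a pseudocount of 0.1, shared rows summed and 1 arm per hairpin kept each count within 1.5 times. Of 575 values of 115 named miRNAs under other scalings and pseudocounts, 30 moved by more than 0.73, the SD of differences between E10.5 replicates. Of 155 list medians, 3 did so. Among the named miRNAs, 0 of the 2-fold differences changed sign. This 0 was fixed in advance: the scalings shift V2a against V3 by less than 2-fold, and a pseudocount cannot turn a sign.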

Other observations

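Differences were more often towards V2a among scarce miRNAs, on a grouping chosen after the values were seen. Of 202 miRNAs with a mean level under 30 TPM, 75 were at least 2-fold higher in V2a and 14 in V3 (47 and 27 by the median of ratios), and of 10 at or above 10000 TPM, 0 were higher in V2a and 2 in V3. The 33 miRNAs higher in V3 summed to 89533.5 TPM in V2a and 197427 TPM in V3, most of it miR-9-5p, whereas the 127 higher in V2a summed to 44482.7 TPM in V2a and 16625.1 TPM in V3.

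Recently numbered miRNAs, with a number of 5000 or above, leaned to V2a. Of 95 such miRNAs, 40 were at least 2-fold higher in V2a (42.1%) and 2 in V3, with a median difference of 0.93 (0.46 by the median of ratios). Of the other 391, 87 were higher in V2a (22.3%) and 31 in V3, with a median of 0.42. By the median of ratios the counts in V2a and V3 were 21 and 5 of the 95, and 42 and 55 of the 391. This grouping was chosen after the values were seen and was not tested. It was also not separated from level, and scarce miRNAs leaned to V2a as given above.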
